A study of Sus scrofa with 25 samples.

Results

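The comparison described here set muscle transcripts of pigs fed 10000 IU of vitamin D3 per kg of feed against those of pigs fed 5000 IU/kg, after 1 fat-rich library was left out. It holds 16 of the 25 libraries of the series, 8 per diet and 1 per pig. The 8 libraries of control pigs are given as levels only. Their sample titles say control without a dose, and the figures mark them as 0 IU/kg. The members were chosen partly on measured values. Among the 9 libraries at 10000 IU/kg, that of animal 27 held 15866 counts of the adipocyte hormone gene ADIPOQ (ENSSSCG00000039103) where no other library of the series exceeded 538. It held 60164 counts of TRARG1 (ENSSSCG00000017801), a fat-cell regulator of glucose transporter traffic, against at most 209 elsewhere. For the fatty acid synthase gene FASN (ENSSSCG00000029944) its 62608 counts compared with at most 1799, and for the desaturase gene SCD (ENSSSCG00000010554) its 107124 counts compared with at most 5136. These 4 genes served to leave the library out, and nothing is read from them here.

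All pigs came from a cross of Polish Large White sows with Landrace boars and were penned singly on straw. The diets started on day 85 of life, lasted 90 days and had equal protein and energy. Pigs of a litter were spread over the diets, but the labels give no litter, sex or muscle for a pig. The groups are called D5000 and D10000, and replicate numbers are the animal numbers in the labels. Libraries were QuantSeq 3′ libraries, which read the end of each mRNA, so counts do not scale with transcript length.

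Vitamin D3 from feed is hydroxylated in the liver, mainly by CYP2R1, and activated in the kidney by CYP27B1. It travels in blood bound to the protein encoded by GC, and CYP24A1 degrades the active hormone. In target cells the hormone binds the vitamin D receptor (VDR), which pairs with a retinoid X receptor and acts with coactivators or corepressors on genes such as CYP24A1 and those of calcium transport. Skeletal muscle is known for low receptor levels in adults. It is also a tissue where vitamin D deficiency is associated with weakness.

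The depth of the D5000 libraries was 4328704 to 12203803 gene counts, and that of the D10000 libraries 3310507 to 15177976. The means of 3 library measures, namely gene counts, the share of reads assigned to genes and the share of counts in the 10 most abundant genes, differed between the diets by less than the spread within them. The assigned share was 51.8% ± 12.6 (SD, n = 8) in D5000 and 53.5% ± 14.0 (SD, n = 8) in D10000 (exact permutation test, two-sided, p = 0.799 and adjusted p = 0.799 over the 3 measures). In 4 libraries under 45% of reads were assigned: D5000 replicates 18 (24.9%) and 11 (43.8%) and D10000 replicates 2 (28.4%) and 7 (38.2%). Results are given with and without these 4 where it matters. The skeletal actin gene ACTA1 took 5.51% to 21.1% of the counts in D5000 and 5.40% to 20.1% in D10000 and the muscle creatine kinase gene CKM, which buffers the energy supply of contraction, had 1816 to 22410 CPM (count share scaled by TMM) over the 16 libraries, so the labelled tissue carried its markers in each. The liver gene ALB was also present in all 16 libraries, at 2610 to 13097 CPM, and the level of liver transcripts is given beside the results they move with. Whether these reads came from the muscle was not tested.

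**Figure D1:**
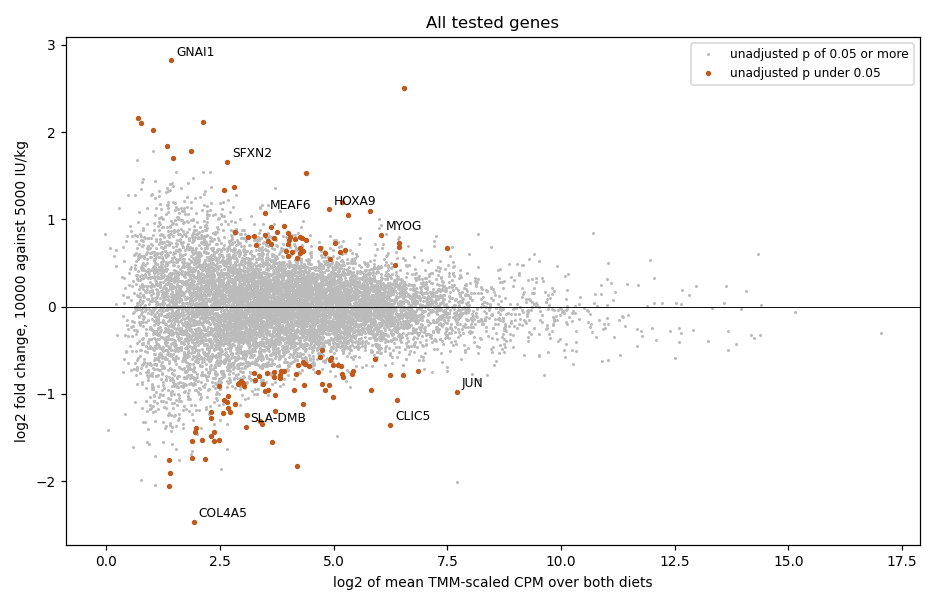
Log2 fold change of D10000 against D5000 (y axis) over the log2 of mean CPM (x axis) for the 10181 genes tested, 1 point per gene. Orange points are the 137 genes with an unadjusted p under 0.05, named examples are labelled, and 0 genes pass after adjustment. The points spread evenly above and below 0.

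The comparison asked whether muscle transcripts differ between the higher and the lower supplemented dose. Of 10181 genes tested, 0 passed an adjusted p of 0.05 (0% of the genes tested), and the smallest adjusted p was 1.00 (edgeR quasi-likelihood test, Benjamini-Hochberg). An unadjusted p under 0.05 was reached by 137 genes, or 1.35% of those tested, where 5% would be 509.1 genes. Of these, 55 were higher in D10000 (0.54%) and 82 were lower (0.805%). Across all genes, 49.9% were higher and 50.1% lower. The log2 fold changes of all genes had a median of -0.00094 and quartiles of -0.24 and 0.24. No gene had 8 libraries of D10000 all above or all below the 8 of D5000 (0 higher and 0 lower). DESeq2 gave 0 and limma voom gave 0 genes past the threshold, with 223 and 169 genes at an unadjusted p under 0.05. The median SE of a log2 fold change was 0.40, so small changes in a single gene were not detectable at this number of pigs. The estimates of GNAI1 at 7.08-fold and COL4A5 at 5.52-fold did not pass either. They were picked from this comparison, so they do not show that true changes of that size were missed. With an SE of this size, the 0 genes past the threshold do not exclude changes of 2-fold or more in single genes. The genes below are among those with the smallest unadjusted p in each direction. They were ranked by this very comparison, so their values describe it and support nothing further.

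Among the 12 leading genes on the higher side, log2 fold changes ran from 0.73 (PATL1) to 2.82 (GNAI1). The largest belonged to GNAI1 (ENSSSCG00000015407), the alpha subunit of an inhibitory G protein. Its CPM was 0, 0.427 and 2.15 in D5000 (lowest, median and highest of 8 libraries) and 1.33, 4.20 and 11.8 in D10000, with a control median of 1.83. In D10000, 7 of 8 libraries lay above the highest of D5000, and the 4 libraries at 0 were all in D5000. The log2 fold change was 2.82 ± 0.89 (SE, n = 8 per diet), and counts this low leave its size poorly fixed.

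Expression of MEAF6 (ENSSSCG00000034611), a subunit of histone acetyltransferase complexes, was 4.32, 6.77 and 10.6 CPM in D5000 and 7.88, 12.3 and 33.7 CPM in D10000. The highest value came from replicate 2, and 5 of 8 libraries exceeded the D5000 maximum. Its log2 fold change was 1.07 ± 0.35, or 0.80 without that replicate. For SFXN2 (ENSSSCG00000010589), a sideroflexin of the mitochondrial inner membrane, the values were 1.46, 2.62 and 6.85 CPM and 2.55, 5.69 and 26.9 CPM. Its D10000 values overlapped those of D5000 except in 3 libraries, and replicates 7 and 2, both with a low assigned share, were the highest. The log2 fold change of SFXN2 was 1.66 ± 0.55 and dropped to 0.90 without the 4 libraries of low assigned share.

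HOXA9 (ENSSSCG00000028997), a homeobox gene of body position, stood at 2.51, 21.2 and 33.3 CPM in D5000 and 23.8, 42.1 and 68.7 CPM in D10000, and its control median was 35.9. Every D10000 library lay above the D5000 median, and 5 of 8 lay above the D5000 maximum. The lowest value of all 16 was that of D5000 replicate 24. Its log2 fold change was 1.12 ± 0.37. A second homeobox gene, IRX3 (ENSSSCG00000002831), reached 3.24, 9.51 and 18.3 CPM and 4.01, 15.6 and 124 CPM. Only 4 of 8 D10000 libraries exceeded the D5000 median, and replicate 13 stood far above the rest. IRX3 had a log2 fold change of 1.54 ± 0.57, or 0.74 without replicate 13.

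OCRL (ENSSSCG00000012650), the phosphoinositide phosphatase lost in Lowe syndrome, was measured at 1.14, 3.08 and 9.12 CPM in D5000 and 2.18, 10.3 and 16.0 CPM in D10000. All D10000 libraries but replicate 2 lay above the D5000 median. This gave a log2 fold change of 1.38 ± 0.49. PATL1 (ENSSSCG00000013124), a protein of mRNA decapping, showed 10.3, 24.9 and 34.2 CPM and 21.6, 40.7 and 56.8 CPM, with a log2 fold change of 0.73 ± 0.26. Here 6 of 8 D10000 libraries lay above the D5000 maximum, while D5000 replicate 6 lay apart at the low end.

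The myogenic factor gene MYOG (ENSSSCG00000034654), which drives the differentiation of myoblasts, was also among the 12. It had 27.6, 42.9 and 86.7 CPM in D5000 and 24.9, 86.8 and 158 CPM in D10000, and the control median of 96.0 CPM lay near that of D10000. Its D10000 values spanned the D5000 range on both sides, with replicate 7 lowest and 4 libraries above the D5000 maximum. Its log2 fold change was 0.82 ± 0.31. The remaining 4 genes were MFSD14A (1.85 ± 0.71), a putative transporter, BET1 (0.85 ± 0.32), a SNARE of transport from the endoplasmic reticulum to the Golgi, KLF7 (0.78 ± 0.31), a Krüppel-like transcription factor and ATP2B3 (1.78 ± 0.72), a calcium pump of the plasma membrane. The log2 fold change of ATP2B3 was 1.11 without D10000 replicate 2, whose value of 20.5 CPM compared with 5.88 CPM in the next library.

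**Figure D2:**
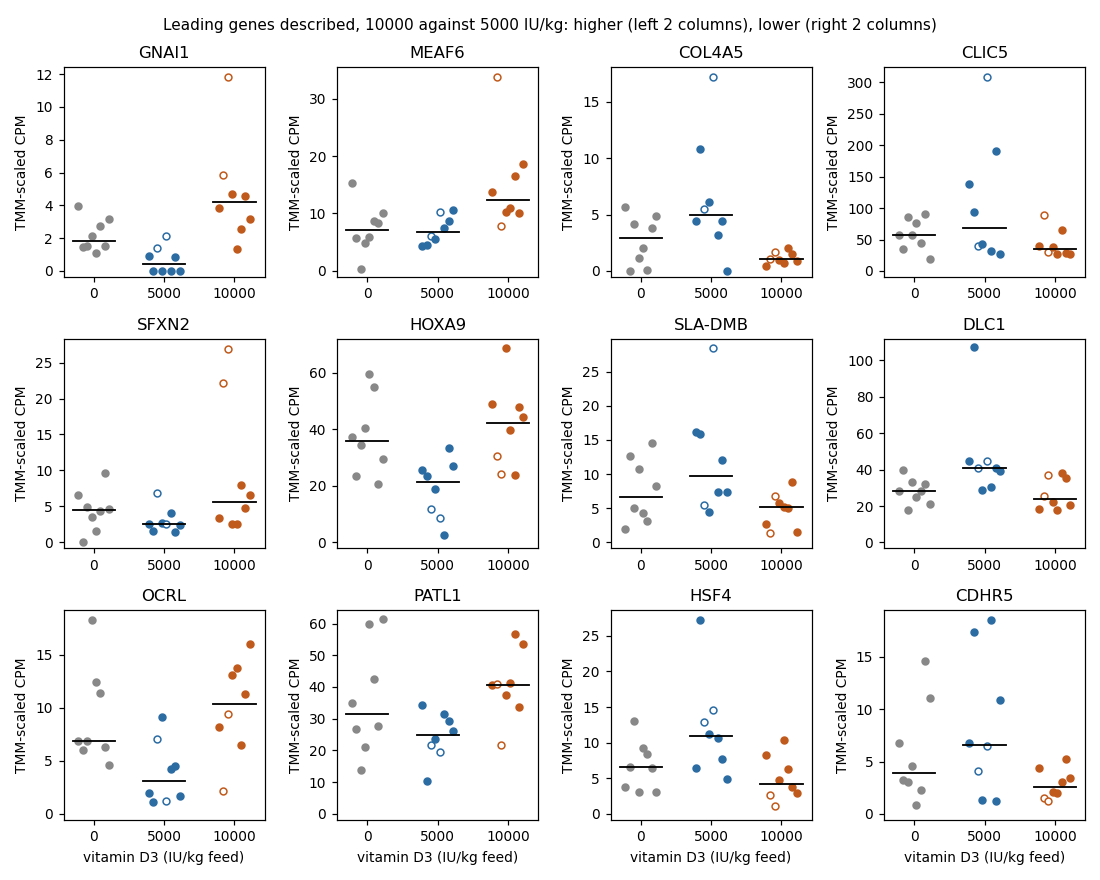
TMM-scaled CPM (y axis) of the first 6 leading genes described in each direction, by vitamin D3 in the feed (x axis), 1 point per pig. Horizontal lines are medians of 8 libraries, open points are the 4 libraries with a low assigned share, and control pigs (grey) were not in the fit. GNAI1 reaches 11.8 CPM at 10000 IU/kg and CLIC5 reaches 309 CPM at 5000 IU/kg, and the diets overlap in every panel.

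On the lower side, the 11 leading genes described had log2 fold changes from -0.64 (PSEN2) to -2.46 ± 0.71 (COL4A5). COL4A5 (ENSSSCG00000012572), a collagen IV chain of basement membranes, showed 0, 4.97 and 17.2 CPM in D5000 and 0.479, 1.02 and 2.01 CPM in D10000, with a control median of 2.91. No D10000 library exceeded 2.01 CPM, and 7 of 8 D5000 libraries had 3.21 CPM or more. The groups overlapped through D5000 replicate 29 alone, which had 0 counts. With all 25 libraries in the fit the log2 fold change of COL4A5 was -1.17.

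CLIC5 (ENSSSCG00000037416), an intracellular chloride channel protein tied to the actin cytoskeleton, was measured at 26.4, 68.5 and 309 CPM and 26.7, 34.2 and 88.4 CPM. Its spread in D5000 was wide, with replicate 18 highest at 309 CPM, then replicates 25 (191 CPM) and 5 (139 CPM). The lowest values of both diets were alike. In the fit it stood at -1.35 ± 0.45, and -0.90 without D5000 replicate 18. DLC1 (ENSSSCG00000006970), a GTPase-activating protein of small G proteins, gave 29.0, 41.1 and 107 CPM and 17.8, 24.0 and 38.3 CPM. All 8 D10000 libraries were under the D5000 median and 5 were under its minimum, and D5000 replicate 6 stood apart at the top. Its log2 fold change was -0.81 ± 0.29, or -0.52 without that replicate.

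The heat-shock factor gene HSF4 (ENSSSCG00000040125) had 4.91, 10.9 and 27.3 CPM in D5000 and 1.14, 4.23 and 10.4 CPM in D10000, with a log2 fold change of -1.24 ± 0.45. PGGHG (ENSSSCG00000025023), which removes glucose from collagen hydroxylysine, had 4.58, 7.59 and 17.4 CPM and 0.996, 3.46 and 7.60 CPM, with a log2 fold change of -1.21 ± 0.45. In both genes at least 5 of 8 D10000 libraries lay under the D5000 minimum. PSEN2 (ENSSSCG00000010860), a catalytic subunit of gamma-secretase, had 15.1, 23.8 and 30.2 CPM and 11.1, 16.9 and 19.3 CPM. All D10000 values of PSEN2 lay under the D5000 median, in a narrow band, and its log2 fold change was -0.64 ± 0.25.

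The other 5 genes on this side were SLA-DMB (described with antigen presentation), CDHR5 (-1.52 ± 0.56, and -0.98 in limma voom), a cadherin of microvilli, FBF1 (-1.74 ± 0.64, and -1.02 with all 25 libraries in the fit), a protein of centriole appendages, GLYCTK (-0.97 ± 0.37), the glycerate kinase, and SNRNP25 (-1.12 ± 0.43), a protein of the minor spliceosome. SNRNP25 stood at -0.60 without D5000 replicate 6. The control median lay between the medians of both diets in 20 of the 23 leading genes described (87.0%), and in 32.9% of all genes tested. It was nearer to D10000 in 14 of 23 (60.9%), against 57.0% of all genes. These genes were picked for differing between D5000 and D10000, so the position of the control is a description of the 23 and nothing is read from it.

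The receptor and the enzymes that answer to it were at or near the detection limit in muscle, and none of the vitamin D genes with enough counts to test passed the threshold. VDR (ENSSSCG00000020864) had 22 counts summed over the 8 D5000 libraries, 21 in D10000 and 21 in the control, in 4 of 8 libraries each. As unscaled CPM this is 0.350 (95% Poisson interval 0.219 to 0.530) in D5000 and 0.287 (0.177 to 0.438) in D10000. Of the 21 counts in D10000, 17 came from replicate 26. These intervals cover counting error only. CYP24A1 (ENSSSCG00000007486), the classical target of the receptor, had 0 counts in all 3 groups, which allows up to 0.0477 CPM in D5000 and 0.0409 CPM in D10000 (3 counts over the group). The calcium-binding protein gene S100G also had 0 counts in the 3 groups. CYP27B1 (ENSSSCG00000028637) had 9 counts in D5000, all in 1 library, and 0 in D10000. The calcium channel gene TRPV6 had 0 counts in D5000 and 3 in D10000, and CALB1, a calcium buffer, had 9 counts in 1 library of D5000 and 0 in D10000. None of these genes entered the test, and at this depth a difference in them was not detectable.

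Of the genes for activation, transport and uptake, 4 of the 9 matched could be tested, and all 4 were lower in D10000 without passing the test. CYP27A1 (ENSSSCG00000016199), a mitochondrial sterol hydroxylase that also acts on vitamin D, had 20.7, 49.6 and 111 CPM in D5000, 18.3, 36.0 and 81.9 CPM in D10000 and a control median of 37.8. Its groups overlapped widely, with 2 D10000 libraries below the D5000 range and none above it. It stood at a log2 fold change of -0.41 ± 0.35, or -0.18 without D5000 replicate 24. GC (ENSSSCG00000027609) had 134, 353 and 644 CPM and 94.9, 318 and 516 CPM, with a log2 fold change of -0.27 ± 0.38, or -0.097 without the same replicate. CYP2R1 (ENSSSCG00000013389) was barely expressed, at 0, 2.15 and 7.68 CPM and 0.839, 1.94 and 4.95 CPM, and its log2 fold change of -0.088 ± 0.77 had a 95% interval of -1.67 to 1.49. The direction of CYP2R1 changed with the method, to 0.62 in limma voom. DHCR7 (ENSSSCG00000021181), which converts the skin precursor of vitamin D to cholesterol, stood at -0.54 ± 0.38, or -0.34 without D5000 replicate 24. Without the 4 libraries of low assigned share CYP27A1 stood at -0.65, GC at -0.42, DHCR7 at -0.83 and CYP2R1 at 0.48. GC is also one of the liver transcripts, whose list moved in the same direction, and their part in the values of GC was not tested.

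Among the receptor partners and coregulators, 15 could be tested, with 7 of 15 higher and 0 at an unadjusted p under 0.05. The list had a median log2 fold change of -0.065, where the median of all genes was -0.00094. Without the 4 libraries of low assigned share the list median was -0.21, with 5 of 15 higher. With single libraries left out it ran from -0.15 to 0.041, highest without D5000 replicate 15. RXRA (ENSSSCG00000038220), the retinoid X receptor that pairs with VDR, had 103, 155 and 222 CPM in D5000 and 103, 175 and 239 CPM in D10000. Its libraries intermingled and its log2 fold change was 0.057 ± 0.24, with a 95% interval of -0.44 to 0.55. PDIA3 (ENSSSCG00000004700), a disulfide isomerase also described as a membrane binding site of the hormone, had 33, 72.7 and 139 CPM and 37.6, 56.5 and 188 CPM, and its log2 fold change was -0.14 ± 0.36. Its highest value was that of D10000 replicate 7, and without it the log2 fold change was -0.52. The coregulators with the smallest p were SMARCA4 (-0.42 ± 0.28), a chromatin remodeller, SNW1 (-0.26 ± 0.23), a coactivator shared with splicing, and NCOA1 (0.30 ± 0.27), a steroid receptor coactivator. SMARCA4 had 54.2, 75.1 and 180.2 CPM in D5000 and 39.5, 69.9 and 103 CPM in D10000, and its control median of 70.4 was close to that of D10000. Without D5000 replicate 6, the highest library of SMARCA4, its log2 fold change was -0.21 and that of SNW1 was -0.13. Without D5000 replicate 15 the log2 fold change of NCOA1 was 0.20.

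Of the 32 receptor targets listed, 16 could be tested, with 6 of 16 higher, 0 at an unadjusted p under 0.05 and a median of -0.065. The median was -0.083 without the 4 libraries of low assigned share. With single libraries left out it ran from -0.14 to 0.052, highest without D5000 replicate 18. TXNIP (ENSSSCG00000031262), the thioredoxin-interacting protein first described as induced by vitamin D, had 369, 1076 and 2482 CPM and 506, 1118 and 1736 CPM. Its medians were close and its log2 fold change was -0.16 ± 0.36, or 0.043 without D5000 replicate 5. ATP2B1 (ENSSSCG00000027898), a plasma membrane calcium pump, had 52.6, 64.9 and 145 CPM and 46.3, 64.4 and 113 CPM, with a log2 fold change of -0.094 ± 0.26 and a 95% interval of -0.63 to 0.45. The targets at the ends of the list were CA2 (0.83 ± 0.56), the carbonic anhydrase of osteoclasts and red cells, SEMA6D (0.76 ± 0.53), a semaphorin, CLDN2 (-0.89 ± 0.71), a claudin of tight junctions, and the matrix phosphoprotein SPP1 (-0.91 ± 0.96). CA2 had 0.977, 5.45 and 9.72 CPM in D5000 and 1.69, 6.29 and 22.6 CPM in D10000. Its 2 values above the D5000 range included replicate 21, and its log2 fold change was 0.44 without that replicate. SEMA6D stood at 0.49 without D10000 replicate 7 and CLDN2 at -0.45 without D5000 replicate 24.

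**Figure D3:**
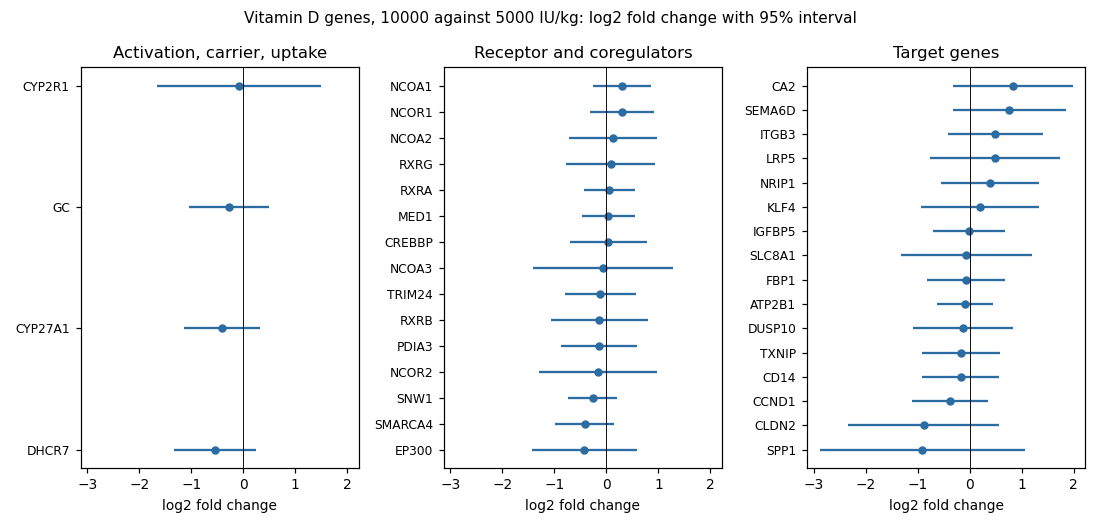
Log2 fold change of D10000 against D5000 (x axis, points) with its 95% interval (lines) for the 35 tested vitamin D genes (y axis), in 3 panels by role. Every interval includes 0, and that of CYP2R1 runs from -1.67 to 1.49.

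Genes of the respiratory chain lay mostly below 0, and no member passed the test. All 13 mitochondrially encoded subunits were lower in D10000. Their log2 fold changes had a median of -0.33 and a range of -0.59 to -0.042, against a median of -0.00094 and 50.1% lower over all genes. They derive from common precursor transcripts, so they are not independent of each other. The mean log2 CPM of the 13 was 11.22, 12.01 and 12.91 in D5000 (lowest, median and highest library) and 11.20, 11.72 and 12.41 in D10000, with a control median of 12.04. Of the D10000 libraries, 6 of 8 lay under the D5000 mean, and the ranges overlapped almost fully. ND1 (ENSSSCG00000018065), a complex I subunit, had 3030, 5757 and 12929 CPM in D5000 and 1913, 4591 and 7155 CPM in D10000, with a log2 fold change of -0.59 ± 0.37. ND5 stood at -0.45 ± 0.34, or -0.18 without D5000 replicate 25, and ND6 at -0.35 ± 0.31, or -0.11 without D5000 replicate 18. Left-out libraries moved the median of the 13 over a range of -0.44 to -0.20, nearest to 0 without D5000 replicate 15 or 25.

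Of 57 nuclear genes of oxidative phosphorylation, 46 of 57 were lower, with a median of -0.20, and 3 were lower at an unadjusted p under 0.05, COX7A2 and COX6A1 among them, where 0.805% of all genes were lower at that p. COX7A2 (ENSSSCG00000004480), a subunit of cytochrome c oxidase, had 21.4, 37.5 and 119.5 CPM in D5000 and 9.58, 25.9 and 42.6 CPM in D10000. D5000 replicate 6 stood far above all others, and the log2 fold change was -0.78 ± 0.33, or -0.40 without it. COX6A1 (ENSSSCG00000039265), the non-muscle form of another subunit, had 12.7, 32.9 and 59.8 CPM and 16.8, 23.7 and 29.5 CPM. All D10000 libraries lay under the D5000 median within a narrow range, and the log2 fold change was -0.61 ± 0.29. It was -0.37 without the 4 libraries of low assigned share. With the 8 control libraries in the fit it was -0.61, and with library 27 added to those 24 it was 0.45.

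The list mean of the 57 genes was 6.02, 7.24 and 7.61 log2 CPM in D5000 and 6.11, 7.13 and 7.39 log2 CPM in D10000, and only 3 of 8 D10000 libraries lay under the D5000 mean. The 4 lowest of the 16 libraries were the 4 with a low assigned share, 2 in each diet. Without these 4 the median was -0.14 with 45 of 57 lower. Single libraries also made it smaller, to -0.095 without D10000 replicate 7, -0.11 without D10000 replicate 2, -0.12 without D5000 replicate 24 and -0.13 without D5000 replicate 6. The tricarboxylic acid cycle genes had a median of -0.043 (13 of 24 lower), those of fatty acid uptake and oxidation -0.11 (20 of 33 lower) and those of glycolysis and glycogen 0.061 (13 of 29 lower). The fatty acid median was 0.076 without D5000 replicate 24. No member of these 3 lists had an unadjusted p under 0.05.

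**Figure D4:**
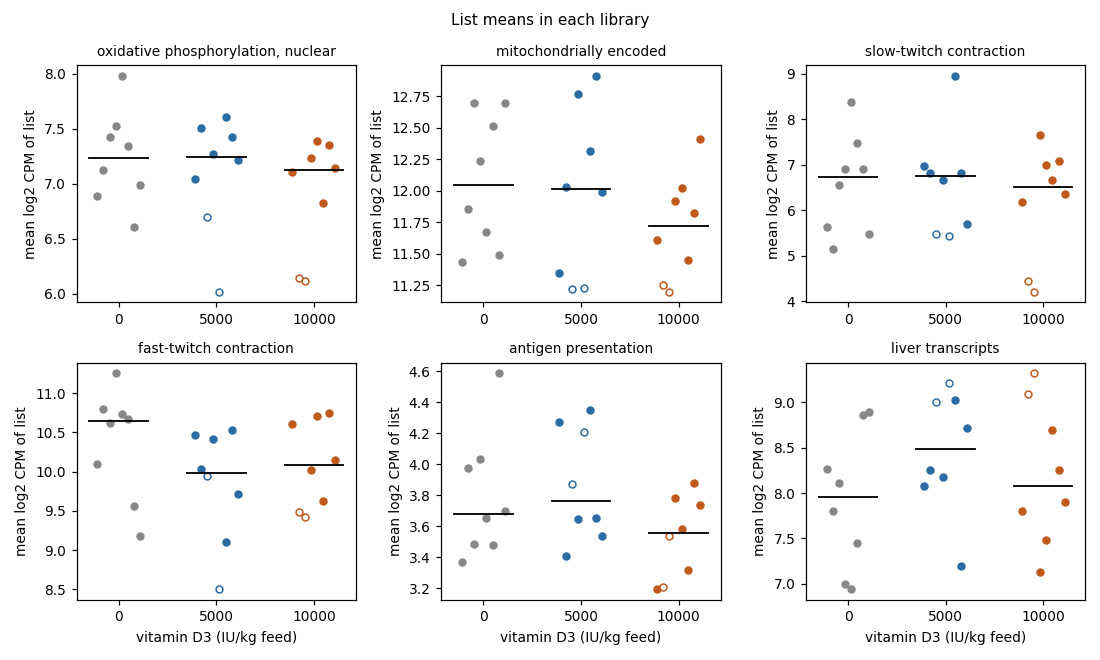
Mean log2 CPM over the tested members of 6 gene lists (y axis) by vitamin D3 in the feed (x axis), 1 point per pig, with medians of 8 as lines. Open points are the 4 libraries with a low assigned share, which lie lowest for oxidative phosphorylation among the dosed pigs, and the slow-twitch list peaks at 8.95 in 1 pig at 5000 IU/kg.

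Genes of slow fibres had the lowest median of the lists with at least 5 tested members, and that median rested on 1 library. Slow fibres are the oxidative, fatigue-resistant fibres of muscle, and in bulk tissue fewer fibres of a type and less RNA per fibre cannot be told apart. Of 10 slow-twitch genes, 8 of 10 were lower in D10000, where 50.1% of all genes were lower. Their median was -0.47, with 0 at an unadjusted p under 0.05. The slow troponin gene TNNC1 (ENSSSCG00000011441) had 260.5, 668 and 3802 CPM in D5000 and 143, 594 and 1018 CPM in D10000. TNNI1 (ENSSSCG00000024061) had 79.8, 313 and 1727 CPM and 107, 192 and 473 CPM. For both, D5000 replicate 24 lay several times above every other dosed library. The log2 fold changes were -0.79 ± 0.50 for TNNC1, -0.78 ± 0.51 for TNNI1 and -0.65 ± 0.54 for TNNT1. Without D5000 replicate 24 they were -0.057, 0.070 and 0.072, and the median of the list was 0.071. The list mean of that library was 8.95 log2 CPM, where the next in D5000 had 6.97. With D5000 replicate 24 kept, the list median was -0.36 without the 4 libraries of low assigned share. It was -0.82 with the assigned share as a covariate, -0.81 without D10000 replicate 13 and -0.28 without D10000 replicate 7.

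For fast-fibre genes, 9 of 16 were higher, near the 49.9% of all genes, and 0 had an unadjusted p under 0.05. Their median was 0.17, but 0.0043 with all 25 libraries in the fit and 0.057 to 0.25 with single libraries left out, lowest without D10000 replicate 20. MYLK2 (ENSSSCG00000007231), which phosphorylates the regulatory light chain of skeletal myosin, had 7.05, 41.2 and 97.6 CPM in D5000, 12.2, 69.9 and 226 CPM in D10000 and a control median of 111. ATP2A1 (ENSSSCG00000007805), the calcium pump of the fast sarcoplasmic reticulum, had 95.9, 967 and 2581 CPM, 234, 2214 and 3848 CPM and a control median of 3361. In both genes the D10000 median lay between that of D5000 and that of the control, and the ranges overlapped. The log2 fold changes were 0.94 ± 0.54 for MYLK2, or 0.56 without D10000 replicate 1, and 0.84 ± 0.58 for ATP2A1. The calcium buffer gene PVALB stood at 0.45 ± 0.49, but at 0.042 without D10000 replicate 26 and 0.96 without D5000 replicate 15. The fast troponin gene TNNI2 stood at 0.25 ± 0.45, and at -0.044 without D10000 replicate 20. ACTA1 (ENSSSCG00000010190), the actin of all skeletal fibres, stood at -0.31 ± 0.48, or -0.048 without D5000 replicate 15 and -0.057 without D5000 replicate 25.

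Of 32 calcium-handling genes, 23 of 32 were higher in D10000, where 49.9% of all genes were higher. Their median was 0.13, with 0 at an unadjusted p under 0.05. ATP2A1 and PVALB are in this list too. Its median was 0.0086 with all 25 libraries in the fit, and 0.076 to 0.22 when single libraries were left out, lowest without D5000 replicate 11 or 24 and highest without D10000 replicate 7. The neuromuscular junction list had 6 of 7 higher and a median of 0.11 (-0.093 without D10000 replicate 20), and the scaffold and dystrophin list 7 of 18 higher and a median of -0.016. RYR1, the calcium release channel, and the adult myosin heavy chain genes matched no symbol in the table of names and have no value here.

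Of the myogenic regulators 10 of 16 were higher, where 49.9% of all genes were higher. Their median of 0.19 was 0.019 without D10000 replicate 13 and 0.35 without D5000 replicate 6. MYOG was the only 1 of the 16 with an unadjusted p under 0.05, where 0.54% of all genes were higher at that p. MEF2A (ENSSSCG00000028771), a partner of the myogenic factors, had 32.7, 49.6 and 67.7 CPM in D5000 and 54.2, 58.6 and 128 CPM in D10000. All 8 D10000 libraries lay above the D5000 median, with replicate 2 far above the rest, and the log2 fold change was 0.49 ± 0.24, or 0.30 without it. MYOD1 (ENSSSCG00000013375), which commits cells to the muscle lineage, had 10.4, 14.0 and 26.1 CPM and 2.28, 10.8 and 17.2 CPM. It lay in the opposite direction, with 3 D10000 libraries under the D5000 range and a log2 fold change of -0.66 ± 0.37. With the assigned share as a covariate the list median was -0.14. MSTN (ENSSSCG00000016047), the secreted brake on muscle growth, had 0.140, 6.66 and 10.5 CPM and 3.94, 8.55 and 21.1 CPM. Its lowest value by far was that of D5000 replicate 24, its ranges overlapped, and its log2 fold change was 0.83 ± 0.54.

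Antigen presentation genes were lower in 10 of 13 tested members, where 50.1% of all genes were lower, with a median of -0.23. The median was -0.14 without D5000 replicate 18, -0.35 without D10000 replicate 2, -0.36 without D5000 replicate 6 and -0.38 without D10000 replicate 7. This was the list in which the D10000 libraries sat most often under the D5000 mean, 7 of 8. Its list mean was 3.41, 3.76 and 4.35 log2 CPM in D5000 and 3.19, 3.56 and 3.88 log2 CPM in D10000, with a control median of 3.68. SLA-DMB (ENSSSCG00000001469), whose product loads peptides on class II molecules, had 4.5, 9.74 and 28.4 CPM in D5000 and 1.31, 5.12 and 8.87 CPM in D10000. All D10000 libraries lay under the D5000 median and 3 under its minimum, and the control spanned 1.97, 6.66 and 14.6 CPM. Its log2 fold change was -1.38 ± 0.46. SLA-DMA (ENSSSCG00000001470), the other chain of the same molecule, had 11.2, 24.3 and 54.5 CPM and 7.49, 17.2 and 24.7 CPM, with 7 of 8 D10000 libraries under the D5000 median. It stood at -0.64 ± 0.32, and at -0.25 without the 4 libraries of low assigned share. SLA-DOA, which modulates this loading, stood at -0.92 ± 0.67 (-0.53 without D5000 replicate 6, and -0.23 with all 25 libraries in the fit), while CD74, the invariant chain of class II, stood at 0.062 ± 0.41 and the class I loading gene TAPBP at 0.035 ± 0.26. Genes of this locus have close copies, so counts may be split among them.

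Markers of immune cells, which carry class II molecules, had 17 of 26 members lower and a median of -0.15, and 0 at an unadjusted p under 0.05. Their summed level ran from 333 to 735 CPM in D5000, from 256 to 683 CPM in D10000 and from 252 to 680.2 CPM in the control, and 1 of the 38 matched markers had 0 counts in all 16 libraries (CD79A, a B cell receptor chain). The granzyme symbol GZMA stood for 2 identifiers, at 0.25 ± 0.86 (ENSSSCG00000016902) and -0.84 ± 0.60 (ENSSSCG00000016903), between which reads may be split. Their signs and sizes moved with single libraries, to -0.26 without D10000 replicate 21 for the first and -0.44 without D5000 replicate 11 for the other. Without D5000 replicate 24 the median of the immune list was 0.025, and without D10000 replicate 13 it was -0.34. The interferon-stimulated genes had 16 of 27 lower and a median of -0.073. What part immune cell content had in the class II values was not tested.

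Immediate-early genes, which respond to handling and stress within minutes, were mixed. Of 20, 12 of 20 were lower, with a median of -0.20 and 2 lower at an unadjusted p under 0.05, where 50.1% of all genes were lower and 0.805% were lower at that p. JUN (ENSSSCG00000031912), a subunit of the AP-1 transcription factor, had 92.8, 239.8 and 704 CPM in D5000, 76.2, 134 and 221 CPM in D10000 and a control median of 117. All D10000 libraries lay under the D5000 median, and the D5000 values spread widely, with replicate 18 highest. Its log2 fold change was -0.98 ± 0.39, and -0.62 without D5000 replicate 18. IER3 (ENSSSCG00000027607), an early response gene of cell survival, had 0.953, 13.7 and 48.3 CPM and 1.96, 8.26 and 15.2 CPM, and stood at -1.20 ± 0.52, or -0.23 with all 25 libraries in the fit. KLF10 (ENSSSCG00000027480), an early target of TGF-beta, had 15.3, 32.6 and 68.6 CPM and 29.0, 50.1 and 127 CPM, with 7 of 8 D10000 libraries above the D5000 median, and stood at 0.60 ± 0.33, or 0.30 without D10000 replicate 21, its highest library. D5000 replicate 5 had the highest list mean, 6.23 log2 CPM where the next in D5000 had 4.89, and without it the median was 0.23. Without D5000 replicate 24 the median was -0.066.

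Liver transcripts lay lower in 27 of 31 members, where 50.1% of all genes were lower. Their median was -0.22, with 0 at an unadjusted p under 0.05 and values from -0.63 to 0.32. Summed over the 33 matched genes, they took 9935 to 40324 CPM in D5000, 10103 to 43235 CPM in D10000 and 8719 to 31323 CPM in the control, and 0 of them lacked counts throughout. The list mean was 7.20, 8.48 and 9.21 log2 CPM in D5000, 7.13, 8.08 and 9.32 in D10000 and 6.94, 7.96 and 8.89 in the control. HPX (ENSSSCG00000014626), the haem carrier of plasma, had 649, 2633 and 3908 CPM in D5000 and 529, 1727 and 3000 CPM in D10000, with a control median of 1129. Of the D10000 libraries, 7 of 8 lay under the D5000 median, and the log2 fold change was -0.61 ± 0.41. VTN, an adhesion protein of plasma, stood at -0.52 ± 0.37 and AMBP, the precursor of a plasma protease inhibitor, at -0.53 ± 0.39, and without D5000 replicate 18 they stood at -0.34 and -0.31. ALB itself had medians of 5502 CPM in D5000 and 4493 CPM in D10000 and stood at 0.034 ± 0.39.

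In D10000 the 2 libraries with a low assigned share, replicates 2 and 7, had the highest liver means, and D5000 replicate 18 had the highest of its diet. Without the 4 such libraries the median was -0.42, with 30 of 31 lower. With single libraries left out it ran over -0.41 to -0.10, nearest to 0 without D5000 replicate 18 and farthest without D10000 replicate 7. It was also over 1.5 times smaller without D10000 replicates 1, 13 or 20 or D5000 replicate 24, and over 1.5 times larger without D10000 replicate 2 or D5000 replicate 25. Cholesterol synthesis genes had 17 of 21 members lower, where 50.1% of all genes were lower, and a median of -0.19. Without the 4 libraries that median was -0.37, with 20 of 21 lower. With single libraries left out that median ran over -0.41 to -0.082, from D10000 replicate 7 left out to D10000 replicate 13 left out. It was -0.10 without D10000 replicate 1 or D5000 replicate 18, -0.11 without D10000 replicate 20 and -0.29 without D5000 replicate 25. Of the 21, 1 was lower at an unadjusted p under 0.05, where 0.805% of all genes were lower at that p. DHCR7 belongs to this list as well, and TM7SF2, a sterol reductase, stood at -1.05 ± 0.74, or -0.12 in limma voom. The 4 highest list means of cholesterol synthesis were those of the 4 libraries with a low assigned share, from 5.66 to 5.98 log2 CPM. The part of liver RNA in the cholesterol, GC and CYP27A1 values was not tested.

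**Figure D5:**
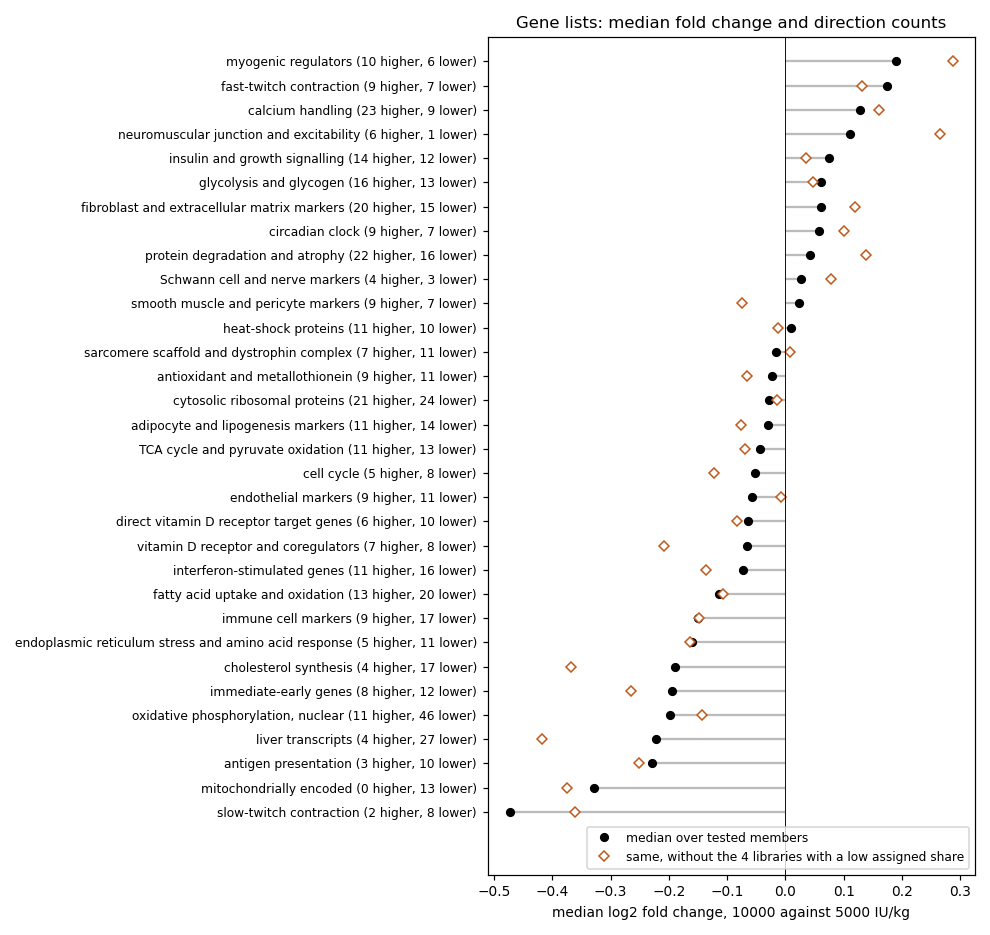
Median log2 fold change of D10000 against D5000 (x axis) for the 32 gene lists with at least 5 tested members (y axis), with counts of members higher and lower. Filled points use the 16 libraries, open diamonds the 12 left without the 4 of low assigned share. Medians run from -0.47 (slow-twitch contraction) to 0.19 (myogenic regulators).

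Adipocyte and lipogenesis markers hold the 4 genes that served to leave library 27 out, so their values are given as a description. They had 11 of 25 higher and a median of -0.03. Their highest mean among the 16 was that of D5000 replicate 25, at 5.59 log2 CPM against 4.88 in the next of its diet. Fibroblast and matrix markers had 20 of 35 higher and a median of 0.06, with CCN2 (ENSSSCG00000004192), a matricellular growth factor, at -0.40 ± 0.38, or 0.025 without D5000 replicate 24. The medians were -0.057 for endothelial markers, 0.023 for smooth muscle and pericytes and 0.027 for Schwann cells and nerve. Of the blood and lung lists under 5 members could be tested, 3 and 4.

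Among the remaining lists the medians were -0.028 for 45 cytosolic ribosomal proteins, 0.0088 for heat-shock proteins, -0.023 for antioxidant genes and 0.058 for the circadian clock. For protein degradation the median was 0.043, for insulin and growth signalling 0.074, for the cell cycle -0.052 and for the endoplasmic reticulum stress and amino acid response -0.16. In the last list 11 of 16 were lower, and its median was -0.043 without D5000 replicate 24. Over the 32 lists with at least 5 tested members, 12 medians were above 0 and 20 below. Lists share members and libraries, so these counts describe the 16 libraries only.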

How the data were processed

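Muscle RNA of 25 pigs was sequenced with the QuantSeq FWD kit, 1 library per pig. The deposited values are raw counts, whole numbers of reads for each Ensembl identifier, and nothing in the files shows that the authors normalized them. The submitters' processing notes name FastQC, without a version. For the aligner, counter, genome build and annotation the names are not given in the sources used here, so no coordinates or sequences are printed. Spike-in and summary lines were left out of the gene counts. The summary lines served only for the assigned share. That share was gene counts over the sum of gene counts, reads outside genes, ambiguous reads and reads aligned more than once. It was 24.9% to 65.5% in the libraries of the comparison. Symbols came from an Ensembl table for 14856 of 25879 identifiers.

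The main test was the quasi-likelihood test of edgeR 4.0.16 (robust) in R 4.3.3, with TMM scaling, filterByExpr (minimum count 10, minimum total 15; 10181 genes left) and diet as the only term over 16 libraries. The Benjamini-Hochberg adjustment covered all tested genes, with a threshold of 0.05. The common biological coefficient of variation, a summary over genes, was 0.624, and the quasi-likelihood fit also estimated a dispersion for each gene. Levels are TMM-scaled CPM, and list means are mean log2 CPM with a prior count of 2. Total gene counts of 3310507 to 15177976 set the precision, and counts without molecular identifiers give intervals for counting error only. Library measures were compared over 12870 splits. P-values weigh the difference between the diets against the spread between pigs. No paired analysis was possible because animal numbers are not shared between diets and litters are not in the labels.

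The members, the 35 gene lists and the named genes were chosen with earlier results of these data known. Named genes were any past the threshold, the 12 with a symbol and the smallest p in each direction, 20 fixed genes (RYR1 matched no identifier), and the 3 smallest p of the 8 lists whose median lay farthest from that of all genes and of both receptor lists. Of these genes, 2 are not reported here. Genes named at the ends of a list, and the members CD74, TAPBP, SPP1 and CD79A, were chosen after their values were seen. The clock gene DBP, entered as an alias of GC, was taken out of the vitamin D list after the values were seen. Alternatives were DESeq2 1.42.0, limma voom 3.58.1, RLE scaling, no filter, the controls in the fit (24 libraries), all 25 libraries, the assigned share as a covariate, and each library left out. A fit without the 4 libraries of low assigned share was added after seeing the data. The code was tested on simulated data.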

Additional observations from a re-analysis of the deposited data

Results flagged for a closer look

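Within each diet, 200 groups of 8 values (named genes, list means and library measures) were checked for a library whose gap to its nearest neighbour exceeded Dixon's 95% critical share of the range. There were 16 such values. In independent groups 1 in 20 is marked by chance, which would be about 10. The groups share libraries and members, and some genes were picked on these values, so 16 beside 10 does not measure an excess. D5000 replicate 6 accounted for 5 of them. It was high for DLC1 (6.75 log2 CPM), SNRNP25 (6.42) and COX7A2 (6.90), and low for PATL1 (3.40) and IRX3 (1.80). D5000 replicate 24 stood apart for the slow-twitch mean (8.95 log2 CPM, high) and for MSTN (-1.37, low). D5000 replicate 18 was low for BET1 (1.35) and for the Schwann cell and nerve mean (2.33).

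The other marks in D5000 were the immediate-early mean in replicate 5 (6.23 log2 CPM, high), the adipocyte mean in replicate 25 (5.59, high) and COL4A5 in replicate 29 (-2.02 log2 CPM, which is 0 counts). The adipocyte list holds the genes that served to leave D10000 replicate 27 out, so its mark is a description and nothing is read from it. In D10000, replicate 2 was low for OCRL (1.28) and high for MEF2A (7.00), replicate 7 was low for CLDN2 (-2.02, which is 0 counts), and replicate 21 was high for KLF10 (6.99). Outside the comparison, the library of D10000 replicate 27 held 15866 counts of ADIPOQ, where control libraries held 40 to 228. ADIPOQ is among the genes that served to leave this library out, so these counts only restate that choice.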

How the results depend on the processing

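The count of genes past the threshold was 0 in each of the 24 alternatives, where genes at an unadjusted p under 0.05 numbered from 92 (without D10000 replicate 1) to 323 (all 25 libraries), and 1438 without a filter on low counts. DESeq2 gave 223 such genes, limma voom 169, RLE scaling 140, the controls in the fit 220, the assigned share as a covariate 293 and the fit without the 4 libraries of low assigned share 315. All 23 leading genes described kept their sign in the 24 alternatives. They were ranked by the main fit, and the alternatives reuse all or most of its libraries, so the kept signs add no support. With 8 pigs per diet and a median SE of 0.40, the number of pigs and their spread limit what can be seen, and VDR, CYP24A1 and CYP27B1 are limited by depth.

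The difference in assigned share ran from -2.14 (without D5000 replicate 18, direction turned, as in -0.013 without D10000 replicate 30) to 5.30 percentage points when single libraries were left out. The difference in the share of the 10 most abundant genes ran from -2.94 to 0.201, turning without D5000 replicates 15 (0.201) or 25 (0.112) or D10000 replicate 7 (0.083). The log2 fold change of CYP2R1 turned to 0.10 with all 25 libraries, 0.62 in limma voom, 0.18 with the covariate and 0.48 without the 4 libraries, and ran from -0.32 to 0.40 with single libraries left out, turning without D10000 replicates 1 and 20 (0.049 and 0.021) and D5000 replicates 11 and 18 (0.14 and 0.40). COX6A1 turned to 0.45 with all 25 libraries. GZMA (ENSSSCG00000016902) turned to -0.17 in limma voom, and ran from -0.26 (without D10000 replicate 21; -0.0040 without replicate 7) to 1.02. Without D10000 replicate 20 TNNI2 stood at -0.044, in a range up to 0.55. RXRA was -0.019 without D10000 replicate 30 and -0.0109 without D5000 replicate 18, with 0.14 as its highest. PDIA3 was 0.029 without D5000 replicate 11 and 0.023 without 18, with -0.52 as its lowest, and ATP2B1 was 0.11 without D5000 replicate 18, with -0.22 as its lowest. Without D5000 replicate 24 CCN2 stood at 0.025, TNNI1 at 0.070 and TNNT1 at 0.072, and without D5000 replicate 5 TXNIP stood at 0.043. Their lowest values were -0.54, -0.98, -0.92 and -0.30. Beyond the libraries named, the cause of these turns was not tested.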
